A study of Mus musculus with 8 samples.

Results

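Expression in C2C12 myoblasts after 14 h in tumour-conditioned medium was compared here with myoblasts at 0 h in control medium. C2C12 is an immortal mouse line of proliferating muscle precursors, and the conditioned medium came from CAPAN-1, a human pancreatic cancer line. The comparison, MBC14 over MBN0, was made on 2 arrays, A and B, of the 8 in the series. They were taken by the hours and media in their titles. MBC14 is RNA of cells 14 h in conditioned medium and MBN0 is RNA of cells in control medium at 0 h, so the medium and the time in culture changed together and their effects cannot be told apart. The same 2 RNAs were hybridised on both arrays with the dyes exchanged. The arrays therefore count as 1 replicate, every SD below is technical (n = 2 arrays), and no test was possible. On array A the MBC14 RNA carried Cy5 and the MBN0 RNA Cy3. On array B the dye field gives the reverse, while the labelling text of that array still names Cy5 for MBC14. The spots were made from human muscle genes and the RNA was mouse, so each symbol below is the human name of a spot that may bind the mouse counterpart or a relative of it.

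Myoblasts divide until serum falls or cells crowd, and then leave the cell cycle, switch on later myogenic factors such as MYOG, fuse and build sarcomeres. Tumour cells release proteins that can act on muscle, and in cachexia muscle loses protein through the ubiquitin-proteasome system and through autophagy while its use of glucose changes. The study asked how pancreatic tumour products alter glucose metabolism and proteolysis in muscle cells.

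The direction of the scores had to be taken in both possible ways. The deposited number is 1 signed score per spot, of unstated scale, so values below are in score units and no fold can be given. In the turned reading, scores are Cy5 over Cy3 and array B is multiplied by -1. In the as-deposited reading, array B keeps its sign, which holds if the scores already are test over reference, or if array B was labelled as its labelling text says. Array A has the same sign in both. Values above 0 were taken as more RNA in MBC14. The sources used here do not settle this, and the opposite convention would exchange higher and lower throughout. Over 2922 genes the arrays as deposited correlated at -0.13 (Pearson, across genes, which are not independent replicates). Of these genes, 666 lay above 0 and 661 below 0 on both arrays, 846 were below 0 on array A and above on array B, and 749 the other way round.

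A gene is said to pass the size rule below where the arrays average 1 unit or more away from 0 and neither comes closer to 0 than 0.5 on that side. Turned, 213 genes were higher in MBC14 (7.29% of those measured) and 245 lower (8.38%). In the as-deposited reading 164 were higher (5.61%) and 138 lower (4.72%). A gene can pass in only 1 reading, and 2162 of the 2922 pass in neither. At the edge of the rule, SELENOF was just inside (1.002 in size) and PLN just outside (0.998) in the turned reading. A single spot, judged from the 2 adjacent spots of each probe, had a within-pair SD of 1.10 (array A) or 1.14 (array B). The difference between the 2 spots varies more than this. The SD is close to the 1 unit of the rule, which applies to means over spots and arrays. All spots on both arrays lay on the side of the mean for 152 of the 213 and 181 of the 245 genes in the turned reading, and for 115 of 164 and 99 of 138 as deposited. Among the genes named below that pass, spots on both sides of 0 lie behind the turned values of ATP6AP1, CCT8, CDK4, CS, DDIT4, DES, FXYD1, GYS1, IER3, MEF2C, NDUFA2, NDUFS5, NEDD4, POLA1, PSMD4, SPINT2, TNFRSF12A and TUBB, and of ribosomal genes given with them. The same holds as deposited for ATP5PF, CCND2, CD36, CHRNA1, MT1X, MYOD1, NCAM1, NDUFA7, PSMG1, SDHD, TRDN and TRIM63.

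**Figure D1:**
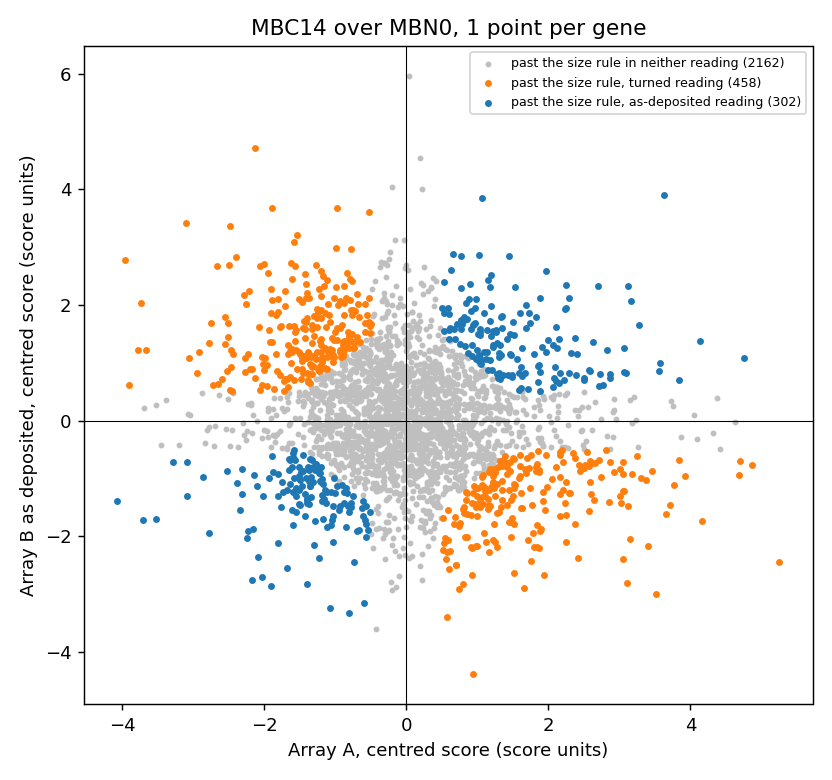
Centred score of each of 2922 genes on array A (x axis) and on array B as deposited (y axis), both in score units; orange points pass the size rule in the turned reading (458) and blue points in the as-deposited reading (302). Grey points (2162) pass in neither, and those along the x axis are genes with a large score on array A alone.

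The genes most in favour of MBC14 in the turned reading included a ubiquitin ligase, an HSP90 partner and parts of the mitochondrion and ribosome. RNF5, a ubiquitin ligase of the endoplasmic reticulum membrane, was highest, with 5.25 on array A and 2.46 on array B (mean 3.85 ± 1.98, SD). SUGT1, a co-chaperone of HSP90, scored 3.52 and 2.999 (3.26 ± 0.37). SLC25A12, the mitochondrial carrier that exchanges aspartate for glutamate, scored 3.11 and 2.82 (2.97 ± 0.21). These arrays lay close together for SUGT1 and SLC25A12, as they did for the cyclin-box protein CNPPD1 (3.05 and 2.40) and the ribosomal protein RPL37 (3.40 and 2.17). For other genes of the group array A was far above array B. The alpha globin HBA1 scored 4.17 and 1.73, ATP5MC1, which encodes the membrane ring subunit of ATP synthase, 4.69 and 0.94, the centromere protein CENPT 4.86 and 0.76, and TNFRSF12A, the receptor of the cytokine TWEAK, 4.69 and 0.70. NPRL2, a subunit of a complex that restrains mTORC1 when amino acids are short, was the reverse, with 0.94 on array A and 4.39 on array B. Its spots on array B before turning were -7.86 and -0.92, so 1 spot carried it. CENPT did not pass after centring on the 51 spots around each spot (2.35).

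At the lower end of the turned reading stood genes of lipid activation, detoxification, DNA replication and Golgi traffic. ACSF2, an acyl-CoA synthetase, scored -2.12 on array A and -4.73 on array B (-3.42 ± 1.84). HAGH, which ends the detoxification of methylglyoxal, scored -3.96 and -2.78 (-3.37 ± 0.83). YWHAG, an adaptor for phosphorylated proteins, scored -3.10 and -3.42 (-3.26 ± 0.23). The arrays also lay close for the Golgi GTPase ARL1 (-2.67 and -2.68), the CGRP co-receptor RAMP1 (-2.49 and -2.70) and the mitochondrial carrier SLC25A29 (-2.39 and -2.82), and so did the spots of these 3 genes. The DNA polymerase alpha subunit POLA1 scored -2.48 and -3.37, but its spots on array B before turning were 6.97 and -0.23, on opposite sides of 0. The remaining members were the secretory membrane protein SCAMP2 (-3.74 and -2.03), the microtubule-regulating kinase MARK4 (-1.89 and -3.68) and the chaperonin subunit CCT8 (-3.78 and -1.22).

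**Figure D2:**
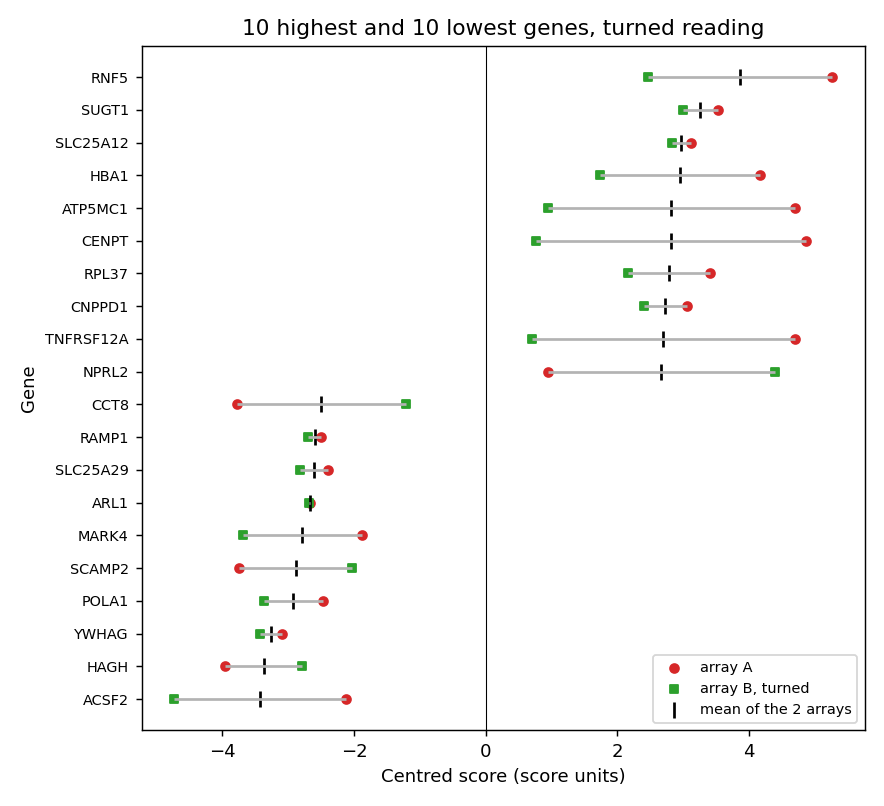
Centred scores (x axis, score units) of the 10 highest and 10 lowest genes of the turned reading (y axis); red points are array A, green squares array B multiplied by -1, and black ticks the mean of the 2. The squares and points nearly coincide for ARL1, RAMP1, SLC25A12 and YWHAG and lie far apart for CENPT, TNFRSF12A and ATP5MC1.

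In the as-deposited reading both ends held nucleolar, ribosomal and mitochondrial genes. The upper end also held a gene of protein folding, and the lower end a muscle actin gene. RPS16, a protein of the small ribosomal subunit, was highest, with 3.62 on array A and 3.91 on array B (3.76 ± 0.20). Its spots on array B were 6.81 and 1.01, so the close means hide a wide spread. FBL, the methyltransferase that modifies ribosomal RNA in the nucleolus, scored 3.13 and 2.33 (2.73 ± 0.56). The HSP70 co-chaperone BAG1 scored 3.16 and 2.07, and the lipid acyltransferase LCLAT1 2.70 and 2.32. On array A the spots of BAG1 were 0.25 and 6.07, so 1 spot carried that score. The same held for ALYREF, named below, with array A spots of 0.65 and 5.89. Those of FBL also lay far apart. ALG3, which adds mannose during protein glycosylation, had the arrays closest, at 2.25 and 2.34. The others were FGFBP2 (4.76 and 1.08), the complex I assembly factor NDUFAF3 (4.13 and 1.37), the mRNA export factor ALYREF (3.27 and 1.66), the peroxisome import receptor PEX5 (1.06 and 3.85) and the muscle isoform of a cytochrome c oxidase subunit, COX6A2 (3.57 and 1.002), which did not pass after centring on neighbouring spots (2.19).

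Lowest in the as-deposited reading was NPM1, the nucleolar protein nucleophosmin, with -4.07 on array A and -1.39 on array B (-2.73 ± 1.89). The cardiac alpha actin ACTC1, which embryonic skeletal muscle also makes, scored -3.70 and -1.72 (-2.71 ± 1.40), with all 4 spot values between -3.997 and -1.56. RPS12 was measured by 4 spots on each array and scored -2.17 and -2.76 (-2.47 ± 0.41). GRN, the growth factor progranulin, scored -2.03 and -2.72, the chemokine receptor CCR7 -1.90 and -2.87, and the Polycomb protein PCGF2 -2.08 and -2.35. GSR, which regenerates reduced glutathione, scored -2.77 and -1.95 (-2.36 ± 0.58). The centrosomal protein ODF2 (-3.52 and -1.71), RPS3 (-3.09 and -1.31) and the succinate dehydrogenase anchor SDHD (-1.08 and -3.25) completed the group.

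**Figure D3:**
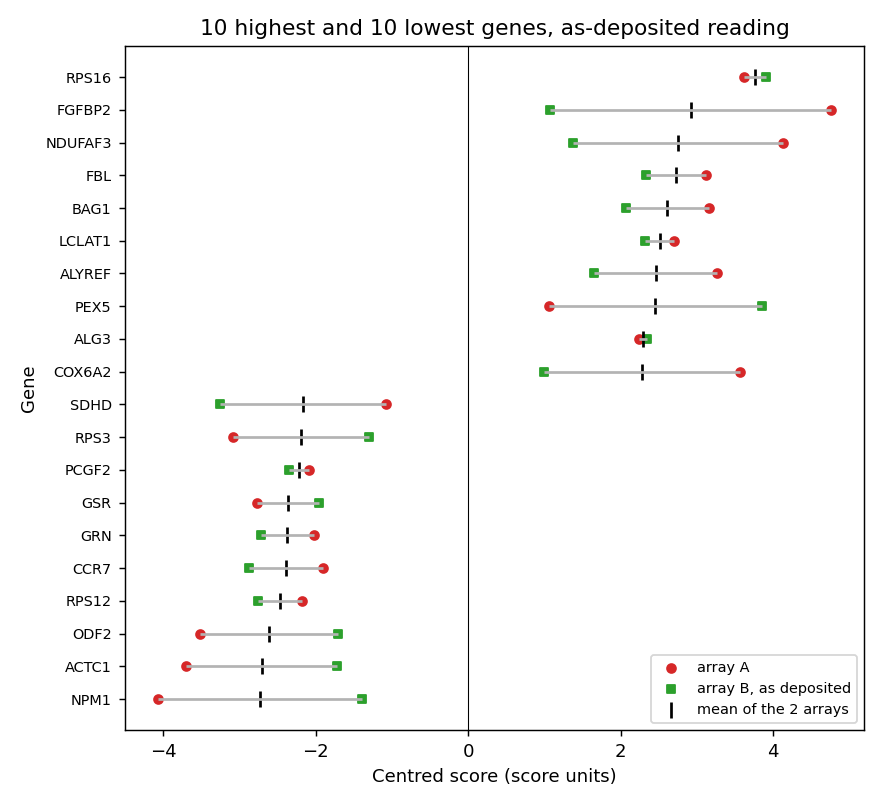
Centred scores (x axis, score units) of the 10 highest and 10 lowest genes of the as-deposited reading (y axis); red points are array A, green squares array B with its deposited sign, and black ticks the mean of the 2. RPS16 leads with both arrays above 3.5, and ALG3, RPS12 and PCGF2 have their arrays close together.

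Some genes were large on array A alone and pass in neither reading. The highest were the cytochrome c oxidase subunit COX7B (4.63 on array A, -0.02 on array B as deposited), the mitochondrial thioredoxin reductase TXNRD2 (4.41 and -0.49), ARL2BP (4.38 and 0.39), TSPYL2 (4.32 and -0.21) and FXYD6 (4.09 and -0.32). The lowest were RAB2A (-3.69 and 0.21), RHNO1 (-3.53 and 0.26), RASSF4 (-3.44 and -0.43), SMYD3 (-3.38 and 0.36) and CPSF7 (-3.20 and -0.42). By the way these 10 genes were chosen, array B had to lie within 0.5 of 0, so that closeness is no separate result. The opposite case was DUSP1, a phosphatase of the early response that switches off MAP kinases, with -0.20 on array A and 4.04 on array B as deposited.

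Among lists of at least 10 measured genes, ribosomal proteins had the medians furthest from 0 on both arrays as deposited. Of 65 genes measured, 47 were below 0 on array A, 45 on array B and 33 on both. Over all 2922 genes these counts were 1507, 1410 and 661. The median of the ribosomal list stood at -0.92 for array A and -0.58 for array B, where all 2922 genes had -0.04 and 0.05. In the as-deposited reading 12 of the 65 (18.5%) were lower past the size rule, against 4.72% of all genes, and 1, RPS16, was higher. Besides RPS12 and RPS3, the lower members included RPS4X (-2.86 and -0.97), RPL5 (-2.31 and -1.27), RPS27L (-1.67 and -1.21) and RPS23 (-1.88 and -0.90). Small subunit genes made up 6 of the 12 from 24 measured, and large subunit genes 6 from 41. After centring on the 51 spots around each spot, 6 genes of the list were lower in place of 12, and its median went from -0.50 to -0.34. The scores also drifted along the spot order of the array, with medians of 51 neighbouring spots from -0.70 to 0.60 on array A and -0.72 to 0.65 on array B (5th to 95th percentile). The part of this drift in the ribosomal values was not tested further.

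In the turned reading 7 ribosomal genes were higher (10.8%, against 7.29% of all genes) and 4 lower (6.15%, against 8.38%), shares near the background. The higher ones were RPL37, RPL32 (3.07 on array A and 1.22 on array B), RPL38 (1.86 and 2.21), RPL37A (3.05 and 0.93), RPS27 (2.24 and 1.64), RPL23A (0.85 and 1.25) and RPL12 (0.84 and 1.24). The lower ones were RPL6, RPL17, RPL24 and RPL18, with means from -1.88 to -1.20. The turned list median of -0.23 hides array medians of opposite sign (-0.92 and 0.58). The spots of RPL38, RPS27, RPL23A, RPL12 and RPL18 did not all lie on 1 side of 0, and RPL37A did not pass after centring on neighbouring spots.

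**Figure D4:**
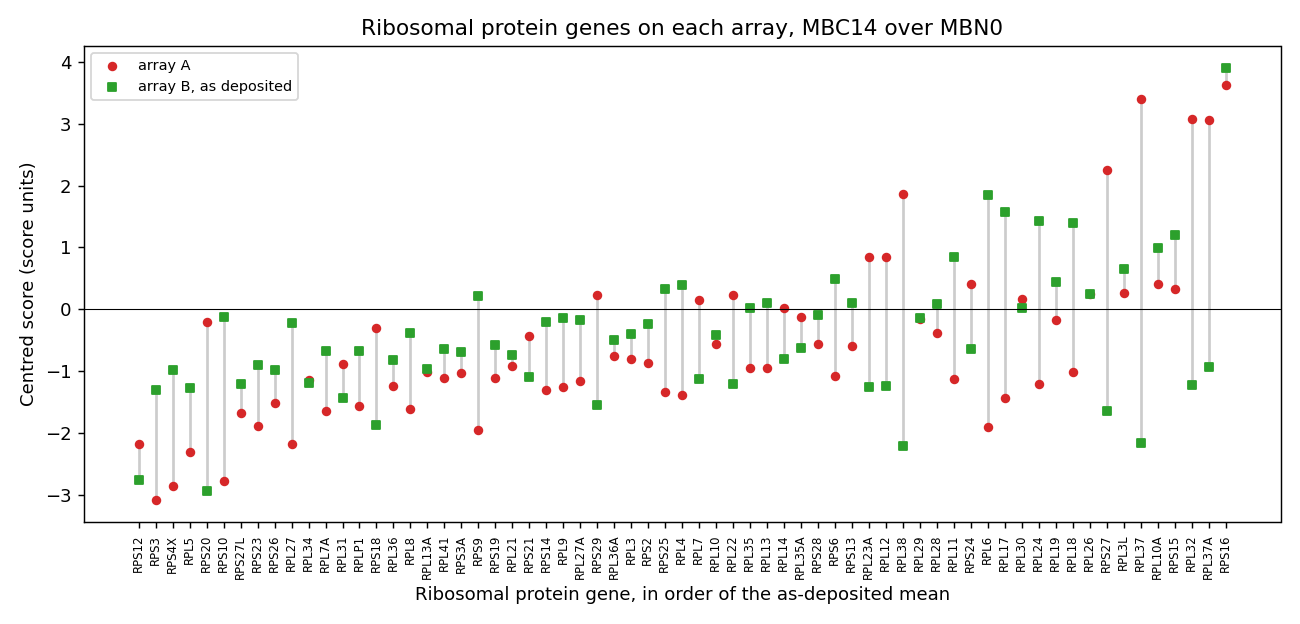
Centred scores (y axis, score units) of the 65 ribosomal protein genes (x axis, in order of the as-deposited mean); red points are array A and green squares array B as deposited. Most pairs lie below 0 on both arrays, RPS16 stands above 3.5 on both, and RPL37, RPL32, RPL38, RPL37A and RPS27 have array A above 0 and array B below.

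Other genes of protein synthesis and folding passed the rule on both sides. Among 39 translation factors, 4 were higher (10.3%) and 3 lower (7.69%) in the turned reading, near the 7.29% and 8.38% of all genes. The elongation factor EEF2 scored 3.17 and 0.92, the termination factor GSPT1 1.17 and 2.27, and the helicase EIF4A2 2.16 and 0.99. The mitochondrial elongation factor TUFM scored -2.06 and -2.68 (-2.37 ± 0.44). As deposited, 0 were higher and 3 lower (7.69%, against 4.72% of all genes), the initiation factors EIF3C (-1.04 and -1.48), EIF3D (-1.06 and -1.25) and EIF4G2 (-1.36 and -0.67). EEF2 and EIF3D did not pass after centring on neighbouring spots. Of 38 chaperone and endoplasmic reticulum genes, 2 were higher (5.26%) and 6 lower (15.8%) in the turned reading. Lower with CCT8 were a second chaperonin subunit, CCT5 (-1.20 and -2.59), the constitutive HSP70 protein HSPA8 (-2.07 and -1.61) and the small heat shock protein HSPB6 (-1.78 and -1.62). As deposited 5 were higher (13.2%, against 5.61% of all genes), among them BAG1, the calcium-binding chaperone CALR (1.19 and 2.51) and HSPB2 (1.33 and 1.80). Lower were 2 (5.26%, against 4.72%), with the mitochondrial chaperonin HSPE1 (-1.36 and -1.45) among them. Of 44 splicing and RNA-binding genes, 5 were higher (11.4%) and 1 lower (2.27%) in the turned reading, with TRA2A (1.79 and 1.95) and SRSF11 (2.28 and 1.25) as examples. As deposited 3 were higher (6.82%), led by HNRNPA0 (1.73 and 1.87), and 5 lower (11.4%), led by SRSF3 (-1.59 and -1.80).

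Few genes of glucose use passed the rule, at shares near the background. Of 22 measured genes of glycolysis and glycogen, 1 was higher (4.55%, against 7.29% of all genes) and 2 lower (9.09%, against 8.38%) in the turned reading. The muscle glycogen synthase GYS1 scored 2.86 and 0.72 (1.79 ± 1.52). LDHA, the lactate dehydrogenase chain favoured in glycolytic tissue, scored -2.48 and -0.54 (-1.51 ± 1.38). FBP2, the fructose-bisphosphatase of muscle, scored -0.75 and -1.26 (-1.01 ± 0.36) and did not pass after centring on neighbouring spots (-0.67). As deposited 2 were higher (9.09%, against 5.61% of all genes) and 0 lower. HK1, which phosphorylates glucose on its entry, scored 1.61 and 1.85 (1.73 ± 0.17), and UGP2, which makes the UDP-glucose for glycogen, scored 1.35 and 1.81 (1.58 ± 0.33). PGK1 was close to 0 in both readings (0.01 ± 0.44 turned, -0.31 ± 0.01 as deposited), with spots of -2.41 and 1.82 on array A. The list median was -0.05 turned and 0.04 as deposited. Of 17 genes of insulin signalling and glucose uptake 1 passed, the kinase AKT1, with 1.51 on array A and 2.64 on array B in the turned reading (2.08 ± 0.80). The insulin-regulated transporter SLC2A4, SLC2A1 and HK2 were not analysed here.

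Mitochondrial genes that passed lay on both sides. Over all genes, 7.29% were higher and 8.38% lower turned, and 5.61% and 4.72% as deposited. Of 31 complex I genes, 0 were higher and 4 lower (12.9%) in the turned reading. The 4 were NDUFS7, NDUFS5, NDUFA12 and NDUFA2 (means from -1.22 to -1.07), of which only NDUFS7 passed after centring on neighbouring spots. As deposited 2 were higher, NDUFA7 (1.99 and 1.40) and NDUFB6 (1.29 and 0.73), and 1 lower, NDUFA9 (-0.82 and -1.47), which did not pass after centring on neighbouring spots, as NDUFB6 did not without any centring. In complexes II and III, SDHD was the 1 gene of 12 to pass. COX7A2L, which links respiratory complexes into supercomplexes, was lower in the turned reading (-1.62 and -2.72). Of 17 ATP synthase genes, ATP5MC1 was higher in the turned reading. As deposited the coupling subunit ATP5PF (1.82 and 1.79, with array A spots of -0.55 and 4.18) and ATP5PO (0.68 and 1.58) were higher and ATP5MC3 (-1.60 and -0.81) lower. In the citrate cycle, CS, the citrate synthase, scored -2.45 and -0.51 and IDH3G 1.60 and 0.79 in the turned reading, 2 of 17 genes. Of 24 genes of fatty acid use, 2 were higher (8.33%) and 4 lower (16.7%) there. ETFDH scored 1.88 and 0.86 and the oxidation enzyme HADH -1.76 and -1.63. As deposited the fatty acid transporter CD36 was higher (2.86 and 0.81) and the oxidation enzyme ECHS1 lower (-1.32 and -0.69), and in the citrate cycle list the aminotransferase GOT2 was higher (1.16 and 0.87). ATP5MC3, ETFDH, ECHS1 and GOT2 did not pass after centring on neighbouring spots, and CS and GOT2 did not without any centring.

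Of the 3 ligases of muscle atrophy measured, TRIM63 passed the rule as deposited and TRIM55 and FBXO32 passed in neither reading. TRIM63, the ligase MuRF1 that marks sarcomere proteins for degradation, scored 0.53 on array A and 1.55 on array B as deposited. Its mean was 1.04 ± 0.72 in that reading, where it passed by a small margin, and -0.51 ± 1.47 in the turned reading. It did not pass without centring (0.99) or after centring on neighbouring spots (0.63). TRIM55, its relative, scored 0.58 ± 0.52 turned and 0.37 ± 0.83 as deposited, and FBXO32, the ligase atrogin-1, 0.06 ± 1.07 and 0.76 ± 0.09. The array B spots of FBXO32 as deposited were -0.88 and 2.26, so the small SD between its arrays hides a wide spread. Of 20 genes of ubiquitin conjugation, 2 were higher in the turned reading (10%, against 7.29% of all genes). They were the ligase NEDD4 (1.84 and 1.80) and the conjugating enzyme UBE2K (0.93 and 2.68). As deposited TRIM63 was the 1 that passed (5% higher, against 5.61% of all genes). Of 24 proteasome genes, 0 were higher and 2 lower in the turned reading (8.33%, against 8.38% of all genes). The 2 were the regulatory subunits PSMD3 (-1.20 and -1.77) and PSMD4 (-0.81 and -1.46). As deposited 4.17% of this list was higher and 8.33% lower, against 5.61% and 4.72% of all genes. As deposited PSMD9 was higher (1.88 and 0.83), while the ATPase PSMC3 (-0.90 and -1.11) and the assembly chaperone PSMG1 (-1.63 and -0.68) were lower, and none of these 3 passed after centring on neighbouring spots. Of 22 genes of lysosome, autophagy and calpain, 3 were higher (13.6%, against 7.29% of all genes) and 4 lower (18.2%, against 8.38%) in the turned reading. The proton pump subunit ATP6V0E1 scored 1.84 and 2.18, its accessory protein ATP6AP1 -2.53 and -0.86, and MAP1LC3B, which coats autophagosomes, -0.88 and -2.33. The first 2 did not pass after centring on neighbouring spots. As deposited the cathepsin CTSL was the 1 higher gene (0.77 and 1.59) and 0 were lower. That is 4.55% higher, against 5.61% of all genes, and 0% lower, against 4.72%.

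Among muscle genes that passed as deposited, some were higher and some lower. ACTC1 and MYOD1 were lower, and NCAM1, an adhesion molecule of myoblasts, was higher (1.97 and 1.19, with array B spots of -0.05 and 2.42). MYOD1, the factor that commits cells to muscle, scored -1.65 on array A and -0.86 on array B (-1.26 ± 0.56), with array B spots of -2.04 and 0.31. Of 49 sarcomere genes, 2 were higher as deposited, the titin cap TCAP (2.11 and 1.62) and the creatine kinase CKB (0.53 and 2.40), and 2 lower, ACTC1 and CSRP3 (-0.80 and -1.58). Each side made up 4.08% of the list, against 5.61% of all genes higher and 4.72% lower. CKB did not pass without centring, nor CSRP3 after centring on neighbouring spots. In the turned reading 0 were higher and 2 lower (4.08%, against 8.38% of all genes). The 2 were the actin-binding protein XIRP1 (-1.56 and -1.57) and the intermediate filament DES (-0.84 and -1.37), of which XIRP1 alone passed after centring on neighbouring spots. Of 13 myogenic control genes, the stress-responsive ANKRD2 was higher (1.002 and 1.66) and the enhancer factor MEF2C (-1.30 and -1.11) and the cell cycle inhibitor CDKN1C (-0.83 and -1.34) lower in the turned reading. These were 7.69% and 15.4% of the list, against 7.29% and 8.38% of all genes. As deposited, NCAM1 higher and MYOD1 lower were 7.69% each, against 5.61% and 4.72%. The inhibitor of differentiation ID3 passed in neither (0.39 ± 0.57 and -0.40 ± 0.55). Of 21 genes of calcium handling, FXYD1, which modulates the sodium pump, was lower in the turned reading (-2.04 and -1.10). It made up 4.76% of the list, against 8.38% of all genes. As deposited the ryanodine receptor regulator FKBP1A (-1.54 and -1.59) and the acetylcholine receptor subunit CHRNA1 (-1.18 and -1.02) were lower and TRDN higher (1.27 and 0.81). That is 9.52% lower and 4.76% higher, against 4.72% and 5.61% of all genes. CDKN1C and CHRNA1 did not pass after centring on neighbouring spots, nor TRDN without any centring. The mouse promoter of Actc1 from RefSeq is shown because this gene had 1 of the largest differences among muscle genes as deposited. Turned, the arrays of ACTC1 lay on opposite sides of 0 (-3.70 and 1.72, mean -0.99 ± 3.83) and it did not pass. The promoter spans chr2:114052826-114053125 (GRCm38.p6, minus strand), 250 bases before to 50 after the start. Capitals mark the match to the CArG box, the site of serum response factor, found on either strand. Of 32851 promoters of this length, 1.63% hold a match. The window also holds 1 E-box (CANNTG, the core bound by MYOD1 and its relatives), where 72.3% of promoters hold at least 1. A match is a description of letters and not a bound site.
Actc1: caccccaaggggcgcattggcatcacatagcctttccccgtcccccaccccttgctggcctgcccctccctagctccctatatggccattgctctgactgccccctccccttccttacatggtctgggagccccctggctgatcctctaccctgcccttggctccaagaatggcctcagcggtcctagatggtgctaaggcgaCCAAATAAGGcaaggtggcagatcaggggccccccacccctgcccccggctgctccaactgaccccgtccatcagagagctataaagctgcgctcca

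Metallothionein genes were among the antioxidant and metal-binding list of 31. As deposited, 4 of the list were higher (12.9%, against 5.61% of all genes) and 1 lower (3.23%, against 4.72%). Metallothioneins bind zinc and copper. MT2A scored 1.88 on array A and 2.12 on array B (2.00 ± 0.18), and MT1X, with 4 spots on each array, 1.86 and 0.97 (1.42 ± 0.63). The selenium carrier SELENOP (1.23 and 1.28) was higher too and did not pass after centring on neighbouring spots, and GSR was the 1 lower gene. In the turned reading the redox protein TXN (2.59 and 1.06) and the ferritin chain FTL were higher, and the oxidative stress sensor PARK7 (-1.58 and -1.64), ROMO1 (-1.44 and -1.73) and PRDX6 (-0.97 and -1.40) were lower, of which PARK7 did not pass after centring on neighbouring spots. Turned, 6.45% of the list was higher and 9.68% lower, against 7.29% and 8.38% of all genes. The list median was -0.24 turned and 0.37 as deposited, and on the arrays -0.01 and 0.57. Mouse Mt1 and Mt2 are the counterparts that spots for human metallothioneins can bind, and their RefSeq promoters (GRCm38.p6, plus strand, chr8:94178839-94179138 and chr8:94172368-94172667) are shown because MT2A and MT1X were both higher as deposited. Turned, their means were -0.12 and 0.45, and 1 of the MT1X spots on array A was at -0.47. Capitals mark matches on either strand to the core of the metal response element, searched as TGCACNC and TGCGCNC, and overlapping matches run together. Mt1 holds 3 matches and Mt2 holds 4, where 1.97% of 32851 promoters hold at least 3 and 0.517% at least 4.
Mt1: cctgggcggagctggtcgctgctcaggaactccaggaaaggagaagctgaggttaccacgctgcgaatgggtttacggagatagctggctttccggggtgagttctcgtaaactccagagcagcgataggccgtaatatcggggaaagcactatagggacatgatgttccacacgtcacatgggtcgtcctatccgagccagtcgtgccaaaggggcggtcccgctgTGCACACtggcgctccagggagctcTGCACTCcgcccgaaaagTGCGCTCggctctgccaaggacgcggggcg
Mt2: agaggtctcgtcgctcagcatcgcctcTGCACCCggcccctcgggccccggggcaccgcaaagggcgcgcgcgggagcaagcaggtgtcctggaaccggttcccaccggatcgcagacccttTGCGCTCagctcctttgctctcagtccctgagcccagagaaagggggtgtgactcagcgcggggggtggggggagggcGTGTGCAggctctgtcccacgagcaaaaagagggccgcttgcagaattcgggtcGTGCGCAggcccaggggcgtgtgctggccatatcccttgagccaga

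Genes of signalling, growth and the cell's surroundings gave small groups. Of 16 inflammatory genes, 3 were lower in the turned reading (18.75%, against 8.38% of all genes). They were LITAF (-0.98 and -2.98), B2M of the class I complex (-2.27 and -0.84) and the NF-kappa-B subunit NFKB2 (-1.19 and -1.92). As deposited the interferon-induced IFITM1 (3.07 and 0.84) and the NF-kappa-B subunit RELA (0.98 and 1.07) were higher, and the calcium-binding alarmin S100A8 lower (-1.18 and -1.29). These were 12.5% and 6.25% of the list, against 5.61% and 4.72% of all genes. RELA did not pass after centring on neighbouring spots or without centring. Of 17 early response genes, 1 was higher and 1 lower (5.88% each) in the turned reading (IER3, 1.14 and 1.36, and BTG1, -2.06 and -0.54), and 0 passed as deposited. Over all genes 7.29% were higher and 8.38% lower turned, and 5.61% and 4.72% as deposited. Of 16 cell cycle genes, the replication helicase subunit MCM3 was higher (1.76 and 2.43) with H2AZ1. The kinase CDK4 (-1.15 and -1.86), RRM1 (-0.998 and -1.54), TUBB and CDKN1C were lower in the turned reading. The shares higher and lower were 12.5% and 25%, against 7.29% and 8.38% of all genes. As deposited CCND2 alone passed, as lower (-0.84 and -1.17), which is 6.25% of the list against 4.72% of all genes. After centring on neighbouring spots BTG1 and CCND2 did not. Of 29 matrix and adhesion genes, 2 were higher and 2 lower (6.90% each) in the turned reading, with the matricellular protein SPARCL1 at 1.89 and 1.91 and collagen COL6A3 at -1.36 and -2.13. As deposited the metalloproteinase inhibitor TIMP1 (0.87 and 1.17) and THBS1 (0.93 and 1.31) were higher and ITGB1BP2 (-1.23 and -0.90) lower. That is 6.90% higher and 3.45% lower, against 5.61% and 4.72% of all genes. THBS1 and ITGB1BP2 did not pass after centring on neighbouring spots, nor TIMP1 without any centring. The 4 measured hypoxia genes included VEGFB, lower as deposited (-2.38 and -1.09), and DDIT4, lower in the turned reading (-0.81 and -1.26). Each was 1 gene of 4 (25%), against 4.72% of all genes lower as deposited and 8.38% turned.

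**Figure D5:**
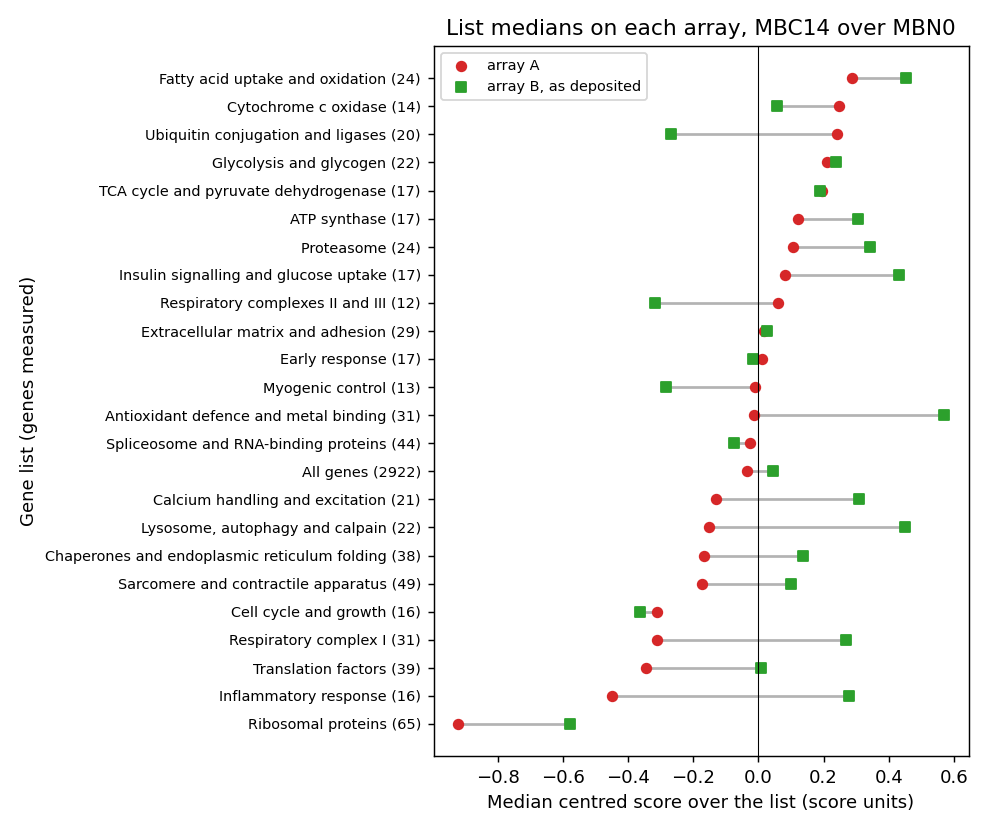
Median centred score of each gene list with at least 10 measured genes (x axis, score units) on array A (red points) and array B as deposited (green squares); the number measured stands beside each name (y axis). Ribosomal proteins lie furthest from 0 on both arrays, at -0.92 and -0.58, and the inflammatory, lysosome and antioxidant lists have their arrays on opposite sides of 0.

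Markers of other cell types and of muscle were read as ratios, which give no level, so the cell type itself could not be checked. Fewer cells of a type and less RNA per cell cannot be told apart in such bulk RNA. Of 7 myoblast and muscle markers 4 were measured (ACTC1, CKM, DES and MYOD1), all below 0 on array A (-3.70 to -0.34) and 2 of them below 0 on array B as deposited. Of 8 blood markers 7 were measured, and all 7 were above 0 on array A (0.31 to 4.17) and 4 on array B as deposited. Over all 2922 genes, 1507 lay below 0 on array A and 1410 on array B as deposited. Human HBA1 and HBA2 encode the same protein, yet their spots differed. HBA1 scored 2.95 ± 1.72 in the turned reading and 1.22 ± 4.17 as deposited, and HBA2 -0.31 ± 3.23 and 2.28 ± 0.44. Of 3 fibroblast and smooth muscle markers measured, none passed as deposited. In the turned reading TAGLN (-1.95 and -2.55) and COL1A1 (-1.83 and -1.16) were lower, while S100A4 lay above 0 (mean 0.60) and did not pass. The 2 epithelial markers went opposite ways there, with SPINT2 at 1.51 and 0.67 and S100P at -1.26 and -1.77, and SPINT2 did not pass after centring on neighbouring spots. The endothelial (CLDN5, VWF) and adipocyte (FABP4, RBP4) markers passed in neither reading.

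Neighbouring comparisons carry 1 of the same RNAs each, and their values are set beside these with no test. By the labels MBC14 RNA is also in MBC14 over MBN14, and MBN0 RNA in MBC24 over MBN0. Turned, ARL1 scored -2.67 here, -2.21 against MBN14 and -2.22 at 24 h against MBN0. RNF5 was above 0 in each as well (3.85, 3.34 and 1.76). RPL37 (2.78, 0.49 and 3.16), SLC25A12 (2.97, 0.17 and 2.30), SLC25A29 (-2.61, -0.40 and -2.70), RAMP1 (-2.59, -0.83 and -2.68) and MCM3 (2.09, 0.83 and 2.87) had values of similar size against MBN0 at 14 and 24 h and smaller ones against MBN14. YWHAG (-3.26, 2.36 and 0.67), POLA1 (-2.92, 3.23 and -0.35) and FBP2 (-1.01, 2.33 and -1.77) stood below 0 against MBN0 at 14 h and passed above 0 against MBN14. So did HAGH (-3.37, 1.21 and 0.37), ACSF2 (-3.42, 1.01 and -1.15), SCAMP2 (-2.88, 1.37 and 0.50) and ROMO1 (-1.59, 4.64 and -0.73). CENPT (2.81, -2.79 and 0.38), SNRPE (1.35, -2.65 and -0.01) and FN1 (1.02, -1.14 and -0.24) passed the other way round, as did PEX5 as deposited (2.45, -1.35 and -0.52). TRIM63 scored -0.51, 2.19 and -0.40. As deposited NPM1 scored -2.73, -1.499 and -3.42, ACTC1 -2.71, -2.22 and -2.02, RPS12 -2.47, 0.90 and -2.54, and MT2A 2.00, 0.57 and 1.63. Against MBN14 the arrays stood apart for ACTC1 (-4.29 and -0.14) and MT2A (-0.65 and 1.79), and neither gene passed there as deposited. MT2A passed as lower there in the turned reading (-1.22). The ribosomal medians as deposited were 0.28 (array A) and 0.08 (array B) for MBC14 over MBN14. For MBC24 over MBN0 they were -0.27 and -0.81.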

How the data were processed

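Each of the 8 arrays of the series has 1 deposited column of signed scores, mapped by its sample and named here by comparison and array letter. Background correction, normalisation, scale and log base of these scores by the authors are not given in the sources used here, and no conversion was made. All 9984 spots of the table were used. Symbols came from the platform annotation of 2016 with updated names: 6610 spots list 1 gene, 106 list several and 3268 are unnamed here. Each array was centred on its median and spots were averaged per gene (2922 genes, 281 with more than 2 spots). Genes were named as the 10 highest and 10 lowest per reading past the size rule, up to 4 members per list and reading, the 5 highest and lowest on array A that pass in neither reading, and 18 genes of the study question. Other genes in the text are further list members, chosen after their values were seen. The members and lists were chosen with earlier results of these data known. Alternatives changed the centring, scaling, spot averaging, thresholds and arrays. Python 3.11.15, pandas 2.3.3 and numpy 2.4.6 were used. The labels name no separate cultures, signal over background is unknown, and the number of arrays limits the precision.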

Additional observations from a re-analysis of the deposited data

Results flagged for a closer look

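Of the 151 named genes past the size rule at 14 h, 13 had both arrays on the other side of 0 in MBC24 over MBN0, and the difference was not tested. The same share over all genes past the rule was not taken, so the 13 have no background to be read against. Both comparisons carry MBN0 RNA. As deposited, 8 of them went from above 0 at 14 h to below 0 at 24 h: BAG1 (2.62 and -0.98), LCLAT1 (2.51 and -0.71), PEX5 (2.45 and -0.52), ALG3 (2.29 and -0.63), HK1 (1.73 and -1.11), NCAM1 (1.58 and -0.25), MT1X (1.42 and -0.72) and NDUFB6 (1.01 and -0.33). For BAG1 at 14 h, 1 spot carried the array A score (spots of 0.25 and 6.07). EIF3C (-1.26 and 0.75) and CSRP3 (-1.19 and 0.44) went from below 0 at 14 h to above 0 at 24 h. In the turned reading these were SCAMP2 (-2.88 and 0.50), RRM1 (-1.27 and 0.55) and UBE2K (1.80 and -0.32).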

How the results depend on the processing

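No paired analysis was possible because the arrays A and B are 1 replicate and the result comes from no test. The counts of genes higher and lower stayed within 1.5 times without centring, after centring on 51 neighbouring spots, with arrays scaled to one spread, with the median of spots, and with only the same sign asked of each array. With a mean of at least 1.5 they were 104 and 102 turned, and 67 and 40 as deposited. On 1 array alone, at 1 unit, higher and lower counts ranged from 420 to 520 and from 495 to 527 turned, and from 520 to 527 and from 420 to 495 as deposited. Centring on neighbouring spots kept 152 of 213 higher and 166 of 245 lower genes turned, 114 of 164 and 90 of 138 as deposited, and 116 of 151 named values; the named values kept their sign in all 4 settings run on them. It also gave 2 ribosomal genes higher in place of 1 and 6 lower in place of 12 as deposited. The 2 single-array medians of a list, in place of its mean over both arrays, reached outside the spread between arrays pooled over lists in the following cases. Turned, they were -0.43 and 0.081 for insulin signalling, -0.45 and 0.29 for fatty acid use, -0.31 and 0.36 for the cell cycle, -0.36 and 0.77 for blood markers, and -0.92 and 0.58 for ribosomal proteins. As deposited, they were 0.081 and 0.43 for insulin signalling, -0.31 and 0.27 for complex I, -0.32 and 0.060 for complexes II and III, -0.27 and 0.24 for ubiquitin conjugation, -0.15 and 0.45 for the lysosome list, -0.13 and 0.31 for calcium handling, -0.45 and 0.28 for the inflammatory list, -0.36 and -0.31 for the cell cycle, -0.013 and 0.57 for the antioxidant list, 0.36 and 0.77 for blood markers, and -0.92 and -0.58 for ribosomal proteins. The cause was not tested.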
